A study of Rattus norvegicus with 8 samples.

Results

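The neuregulins and the ErbB receptors were followed in rat sciatic nerve through 10 genes chosen by symbol, all 10 of which were found among the 22601 genes of the deposited count table. They comprise the ligand genes Nrg1, Nrg2, Nrg3 and Nrg4, the receptor genes Egfr, Erbb2, Erbb3 and Erbb4, the gene of the protease Bace1 and that of the receptor-binding scaffold Erbin. The nerves came from rats 15 days after a chronic constriction injury (CCI), in which loose ligatures leave the nerve partly damaged and painful, or 15 days after a sham operation, with 4 libraries of polyA RNA per group. The labels give no genotype, strain, sex, age or drug for either group, and do not state whether the libraries came from separate rats, so p-values measure only the spread between these libraries, which may be technical.

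Neuregulins are growth factors with an EGF-like domain. Neuregulin-1 on the axon surface is read by the Schwann cell through a receptor made of ErbB2 and ErbB3, and the strength of that signal sets how thick a myelin sheath becomes. ErbB3 binds the ligand but has little kinase activity of its own, while ErbB2 has an active kinase but no known ligand, so they act as a pair. ErbB4 both binds neuregulins and signals, and EGFR answers to EGF, TGF-α and related ligands but not to neuregulins. The protease BACE1 cuts neuregulin-1 and in mice is needed for normal myelin thickness. The cell bodies of sensory and motor neurons lie outside the nerve, so transcripts measured here come mainly from the resident and infiltrating cells of the nerve, and counts per gene do not separate the axonal from the secreted forms of neuregulin-1.

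Deposited counts summed to between 42541217 and 54559292 per CCI library and to between 42654145 and 48573026 per sham library, and 3 counts in a library corresponded to 0.0518 to 0.0771 CPM. CPM values below (counts relative to library size) carry TMM scaling, which corrects for library makeup, and FPKM is named where it is used instead. Calls rest on edgeR's quasi-likelihood test, with p adjusted by the Benjamini-Hochberg method over 15763 genes and a threshold of 0.05. As a check of the labelled tissue, summed Schwann lineage markers (10 genes, Erbb3 among them) ran from 1250 to 2127 CPM in CCI nerve and from 4210 to 5224 CPM in sham nerve. Summed myelin markers (12 genes) ran from 7015 to 10770 CPM in CCI nerve and from 94960 to 111600 CPM in sham nerve, and 11 macrophage markers from 5421 to 6231 CPM in CCI nerve and from 1043 to 1621 CPM in sham nerve. Of 9 skeletal muscle markers, the sum was 15.9 to 5669 CPM in CCI nerve and 19.1 to 992 CPM in sham nerve, highest in CCI 2 and sham 2, and 8 of 8 tested were not called. Without CCI 2 and sham 2, 9769 genes were called and Erbb4, Bace1, Egfr and Erbb2 kept their calls. The libraries kept still differed in the muscle sum. It was 15.85, 1111 and 780.1 CPM in CCI 1, 3 and 4, against 20.81, 35.76 and 19.12 CPM in sham 1, 3 and 4. That fit is therefore not one without muscle RNA, and the part of muscle in the calls was not tested. In whole nerve, fewer cells of a type and less RNA per cell cannot be told apart.

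Of the 10 genes, 9 passed the filter on low counts and Nrg3 did not. Erbb4, Bace1, Egfr and Erbb2 fell in CCI nerve, none of the 9 rose, and Nrg1, Nrg2, Nrg4, Erbb3 and Erbin did not pass the test. The 4 calls among 9 stand against 68.4% of all tested genes called, 36.2% higher and 32.2% lower, so the count of changed genes in the family was not above the background. CCI and sham libraries did not overlap for the same 4 genes, against 64.8% of all tested genes (30.6% with CCI lower, 34.2% with CCI higher). Erbb4 was the 1 gene of the 9 that fell at least 2-fold, against 13.9% of tested genes that fell and 16.4% that rose this much. The median log2 fold change of the 9 was -0.45, beside 0.05 for all tested genes.

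**Figure D1:**
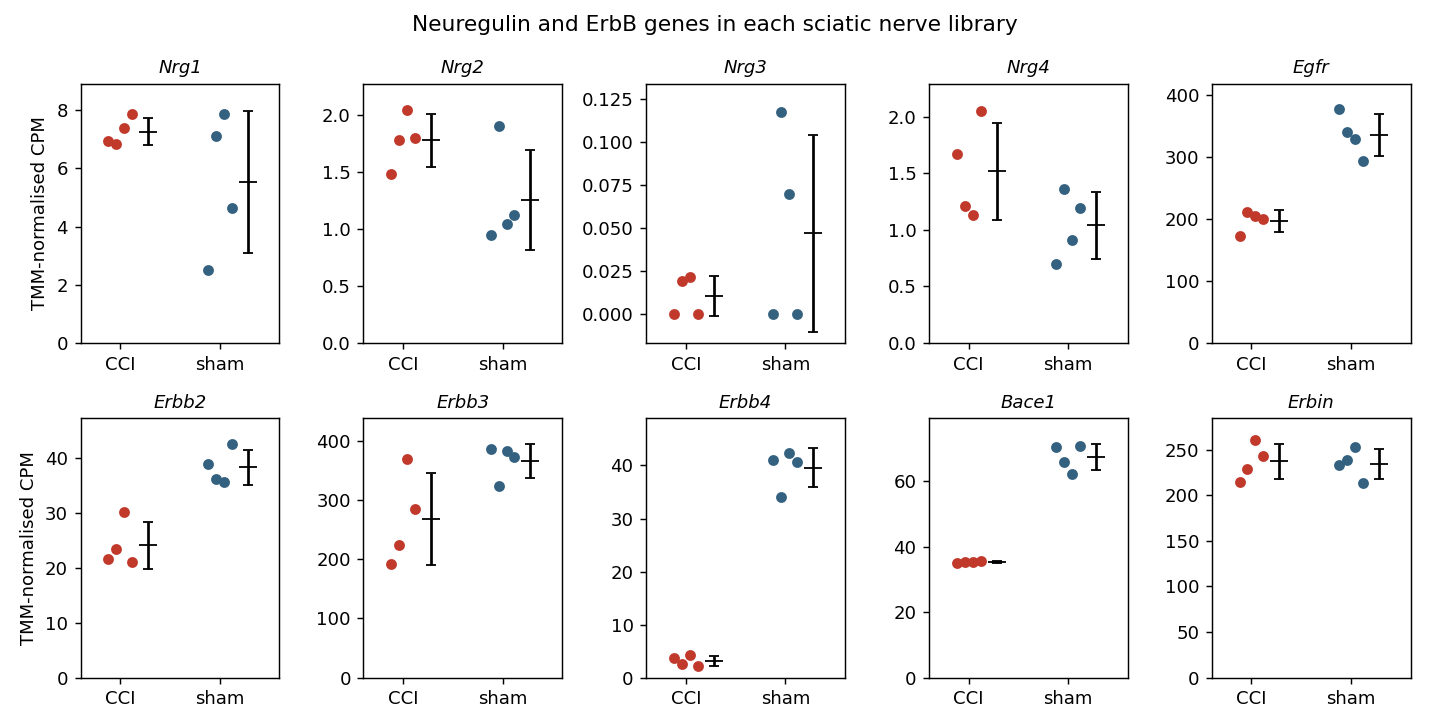
TMM-normalised CPM of the 10 genes, 1 point per library, CCI left and sham right in each panel, with the mean and SD (n = 4) as bars. Every CCI point lies below every sham point for Egfr, Erbb2, Erbb4 and Bace1, and the groups overlap for the other 6 genes.

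Erbb4, the neuregulin receptor with both a ligand site and an active kinase, showed the largest fold change of the 9 tested genes. It was at 3.64, 2.66, 4.2 and 2.20 CPM in CCI 1 to 4, against 41.1, 34.1, 42.4 and 40.6 CPM in sham 1 to 4. The highest CCI library thus lay far under the lowest sham library. These levels rest on 105 to 211 counts per CCI library and 1450 to 1840 counts per sham library. Erbb4 was 12.4-fold lower in CCI nerve (log2 fold change -3.64, SE 0.19; edgeR adjusted p = 1.12e-07). The 12 myelin markers had a median log2 fold change of -3.38 and 12 of 12 fell, and the 6 tested perineurial markers a median of -1.88 and 6 of 6 fell. Which cells of the nerve hold the Erbb4 transcripts, and the part of those cell types in its fall, was not tested.

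Erbb3, the ligand-binding part of the Schwann cell receptor, was the most abundant of the 4 receptor genes per length and lay close to the threshold. Its levels were 192, 224, 369 and 284 CPM in CCI 1 to 4, against 385, 324, 383 and 372 CPM in sham 1 to 4. CCI 3 lay within the sham range and the other CCI libraries below it. Its mean was 267 ± 77.8 CPM in CCI nerve and 366 ± 28.9 CPM in sham nerve (SD, n = 4 each), with a log2 fold change of -0.45 (SE 0.18) and an edgeR adjusted p of 0.0504. Without CCI 3 it was -0.68 (edgeR adjusted p = 0.000688), and with libraries scaled by their totals only it was -0.22 (edgeR adjusted p = 0.319).

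Erbb2, the kinase partner of Erbb3, fell 1.59-fold. It was at 21.5, 23.5, 30.2 and 21.0 CPM in CCI 1 to 4, against 38.9, 36.2, 35.6 and 42.5 CPM in sham 1 to 4. CCI 3 was again the highest library of its group, and still below all sham libraries. The log2 fold change was -0.67 (SE 0.12; edgeR adjusted p = 0.000449).

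Egfr, the receptor of the family that neuregulins do not bind, fell 1.70-fold. Its levels were 172, 211, 205 and 199.9 CPM in CCI 1 to 4, against 378, 341, 329 and 295 CPM in sham 1 to 4. The groups were separate, with sham 4 the lowest of its group. The log2 fold change was -0.77 (SE 0.09; edgeR adjusted p = 2.40e-05).

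As a share of the summed FPKM of the 4 receptor genes, which does not depend on how libraries are scaled, Erbb4 differed most as a fold and Erbb3 by about as many percentage points. It held 2.18%, 1.37%, 1.48% and 0.983% in CCI 1 to 4, against 11%, 10.7%, 11.8% and 11.6% in sham 1 to 4. Erbb3 held 66.3% to 75.0% in CCI nerve and 58.4% to 61.5% in sham nerve, with no overlap. The 4 shares make up the whole in each library, so a smaller Erbb4 share raises the others. The larger Erbb3 share is therefore not a result separate from the falls of Erbb4, Egfr and Erbb2, and is no rise in the level of Erbb3. Egfr held 18.5% ± 3.22 in CCI nerve and 19% ± 2.0 in sham nerve, and Erbb2 9.66% ± 1.34 in CCI nerve and 9.42% ± 0.845 in sham nerve (SD, n = 4 each), with overlapping groups for both.

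**Figure D2:**
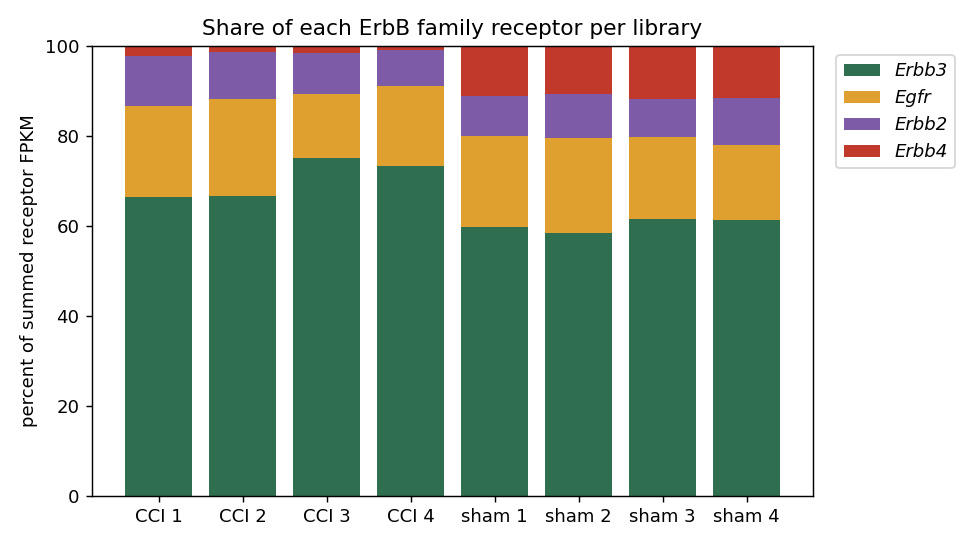
Stacked bars give, for each library, the percent of summed receptor FPKM held by Erbb3, Egfr, Erbb2 and Erbb4 (bottom to top), CCI libraries left and sham libraries right. The Erbb4 segment is at most 2.18% in CCI libraries and at least 10.7% in sham libraries.

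Ratios between genes within a library were compared by an exact two-sided permutation test over the 8 libraries, for which the smallest p is 0.0286, and adjusted over the 5 ratios examined. A ratio at that smallest p could pass the adjustment only if enough of the other ratios reached it too. For a ratio with fully separate groups, not passing therefore says nothing about the size of the difference. Erbb2 over Erbb3, the partners of the Schwann cell receptor, was 0.167, 0.156, 0.122 and 0.110 in CCI 1 to 4, against 0.150, 0.167, 0.138 and 0.170 in sham 1 to 4. The groups overlapped and the log2 ratio differed by -0.19 (exact permutation p = 0.286, adjusted p = 0.286). Egfr over Erbb3 was 0.191 to 0.323 in CCI nerve and 0.272 to 0.362 in sham nerve, a log2 difference of -0.27 (exact permutation p = 0.257, adjusted p = 0.286).

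Erbb3 stood differently toward Sox10, the transcription factor gene of the whole Schwann lineage. Sox10 fell 3.73-fold, to 88.3 ± 22.1 CPM in CCI nerve, against 329 ± 2.40 CPM in sham nerve (SD, n = 4 each; edgeR adjusted p = 1.95e-06). The FPKM ratio of Erbb3 to Sox10 was 1.16, 1.27, 1.33 and 1.45 in CCI 1 to 4, against 0.506, 0.427, 0.499 and 0.493 in sham 1 to 4. All 4 CCI ratios lay above all 4 sham ratios, by 2.71-fold on average (log2 difference 1.44). The exact permutation p was 0.0286, the smallest these libraries can give, and its adjusted value of 0.0714 did not pass. Within the CCI group, CCI 3 had the highest and CCI 1 the lowest level of both genes. These libraries also had the highest and lowest summed Schwann lineage markers (2127 and 1250 CPM), a sum that includes Erbb3 and Sox10 themselves. The part of that spread in the Erbb3 result was not tested. Ngfr, another gene of the lineage list, which encodes the p75 neurotrophin receptor, was at 162 to 459 CPM in CCI nerve and 20.8 to 26.6 CPM in sham nerve. The genes of that list did not share a direction: Ngfr and Sox2 rose, genes such as Sox10, S100b and L1cam fell, and Erbb3, Gfap and Ncam1 did not pass. Sox2 passed narrowly (edgeR adjusted p = 0.0454) with overlapping groups, at 14.48 to 40.45 CPM in CCI nerve and 13.77 to 19.03 CPM in sham nerve. L1cam, an adhesion molecule gene, fell 2.13-fold (edgeR adjusted p = 0.000881), while Gfap had a log2 fold change of -0.37 (edgeR adjusted p = 0.0808) and Ncam1 of 0.36 (edgeR adjusted p = 0.0981). Without CCI 3 Gfap passed at -0.58, and without CCI 4 Ncam1 passed at 0.43.

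**Figure D3:**
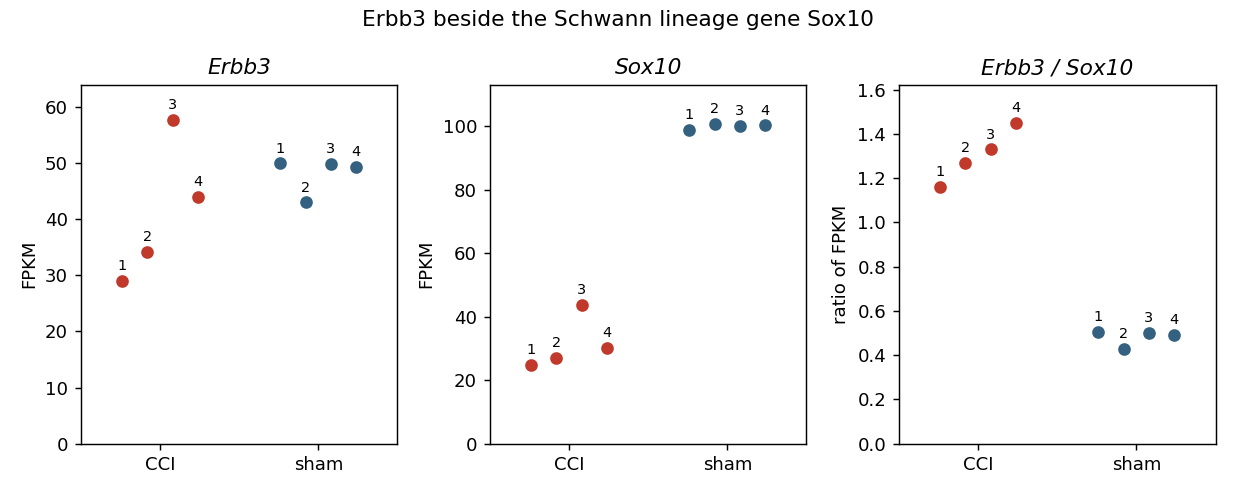
FPKM of Erbb3 (left panel) and Sox10 (middle), and the ratio of the 2 (right), for each library, CCI left and sham right; the figures beside the points are library numbers. Erbb3 overlaps between groups, Sox10 does not, and the ratio is at least 1.16 in CCI and at most 0.506 in sham libraries.

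Shown are the 250 bases before the RefSeq start sites of the receptor genes with the largest and the smallest called fall. Counts per gene do not tell which start site the transcripts came from. RefSeq promoter sequences (build GRCr8, used for sequence only) were matched for 8 of the 10 genes, Nrg1 and Erbb3 not among them. Sequences run 5′ to 3′ toward the start site, and capitals mark a match to GGAATG or its reverse CATTCC, the core letters bound by TEAD factors.
Erbb4, chr9:78045607-78045856, - strand: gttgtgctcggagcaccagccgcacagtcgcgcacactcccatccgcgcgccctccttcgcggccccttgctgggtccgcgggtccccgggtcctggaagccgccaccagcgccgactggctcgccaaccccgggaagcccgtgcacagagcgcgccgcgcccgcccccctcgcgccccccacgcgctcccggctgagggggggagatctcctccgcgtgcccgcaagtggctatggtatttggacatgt
Erbb2, chr10:83907351-83907600, + strand: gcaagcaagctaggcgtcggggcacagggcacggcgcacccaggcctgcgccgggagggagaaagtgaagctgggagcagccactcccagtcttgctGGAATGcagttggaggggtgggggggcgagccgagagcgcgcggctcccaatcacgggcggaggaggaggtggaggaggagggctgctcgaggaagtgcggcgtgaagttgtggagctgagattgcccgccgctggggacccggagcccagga
The Erbb2 window held 1 such match, 153 bases before the start site, and 12.1% of 33469 promoter windows of the same length held at least 1. The core letters ACAAAG of SOX factors (16.3% of windows), TGANTCA of AP-1 (6.34%) and GCGGGGGCG of EGR factors (2.45%), each searched on both strands, were not in the windows of Erbb4, Erbb2, Egfr or Bace1. The G and C content was 73.6% for Erbb4 and 69.2% for Erbb2, against a median of 51.2% over all windows. A match in these letters is not a measured binding site.

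Nrg1, the ligand gene that controls Schwann cell number and myelination, did not pass the test. It was at 6.96, 6.83, 7.40 and 7.87 CPM in CCI 1 to 4, against 2.52, 7.11, 7.88 and 4.65 CPM in sham 1 to 4. The CCI libraries were close together and lay inside the wide sham range, whose low end was set by sham 1 and sham 4. The log2 fold change was 0.39 (SE 0.30; edgeR adjusted p = 0.264), with 347 to 403 counts per CCI library and 98 to 339 per sham library. Sham 1 and 4, and sham 2 and 3, resembled each other more than the other sham pairs did over all genes (chi-square per degree of freedom 27.5 and 29.6, against 50.0 to 74.5), and the part of this division in Nrg1 was not tested. Without sham 1 the log2 fold change of Nrg1 was 0.15 (edgeR adjusted p = 0.497).

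The ratio of Nrg1 to Erbb3, ligand to receptor, was 0.00893 to 0.0161 in CCI nerve and 0.00291 to 0.00978 in sham nerve by FPKM, a log2 difference of 1.01 with overlapping groups (exact permutation p = 0.0857, adjusted p = 0.143). These ratios depend on the 15818 bases of gene length behind the deposited FPKM of Nrg1, against 7037 for Erbb3.

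Nrg2, which also binds ErbB3 and ErbB4, was at 1.49, 1.78, 2.05 and 1.80 CPM in CCI 1 to 4, against 0.951, 1.91, 1.05 and 1.13 CPM in sham 1 to 4. Sham 2 lay among the CCI libraries and the other sham libraries below them. The log2 fold change was 0.50 (SE 0.29; edgeR adjusted p = 0.142). Without sham 2 it was 0.77 and passed (edgeR adjusted p = 0.0289), and it also passed with library totals only (0.72, edgeR adjusted p = 0.0450).

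Nrg4, a ligand of ErbB4 that fat tissue secretes, was at 1.68, 1.21, 1.13 and 2.06 CPM in CCI 1 to 4, against 0.694, 1.37, 0.906 and 1.19 CPM in sham 1 to 4. The groups overlapped, and the log2 fold change of 0.55 (SE 0.32) did not pass (edgeR adjusted p = 0.150). With limma on log2(FPKM + 1) it was 0.39 and passed (limma adjusted p = 0.038). With limma on log2(FPKM + 0.1) it was 0.71 and also passed (limma adjusted p = 0.041). These fits leave library makeup uncorrected. Both Nrg2 and Nrg4 rest on few reads, 53 to 98 counts per CCI library and 27 to 81 per sham library. The 7 adipocyte markers summed to 550 to 1130 CPM in CCI nerve and 353 to 829 CPM in sham nerve, with CCI 4 and sham 4 the highest of their groups, and CCI 4 was the library with most Nrg4. Their part in the Nrg4 values was not tested.

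Nrg3, a ligand of ErbB4 known mainly from the nervous system, had 0, 1, 1 and 0 counts in CCI 1 to 4 and 0, 5, 3 and 0 counts in sham 1 to 4. Reads were seen in CCI 2, CCI 3, sham 2 and sham 3, at most 5 in a library, and no fold change was computed.

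Bace1, the protease that cuts neuregulin-1, fell in CCI nerve. It was at 34.9, 35.3, 35.3 and 35.7 CPM in CCI 1 to 4, against 70.5, 65.7, 62.3 and 70.8 CPM in sham 1 to 4. The CCI libraries were close together and all below the sham libraries. Bace1 was 1.91-fold lower (log2 fold change -0.93, SE 0.06; edgeR adjusted p = 3.08e-07). The FPKM ratio of Bace1 to Nrg1, enzyme to substrate, was 36.8, 37.9, 35 and 33.2 in CCI 1 to 4, against 205, 67.8, 57.9 and 112 in sham 1 to 4. It was lower in every CCI library than in every sham library (log2 difference -1.45; exact permutation p = 0.0286, adjusted p = 0.0714, which did not pass), with the 2 highest values in sham 1 and sham 4, where Nrg1 was low.

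Erbin encodes a scaffold protein that binds ErbB2 and keeps it at the membrane. It was at 215, 229, 261 and 244 CPM in CCI 1 to 4, against 234, 238, 253 and 213 CPM in sham 1 to 4, with overlapping groups. The log2 fold change was 0.02 (SE 0.08; edgeR adjusted p = 0.861). It was 0.24 and passed with library totals only (edgeR adjusted p = 0.0214), a scaling under which the median of all tested genes moved to 0.27, and it was -0.02 with DESeq2's size factors.

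**Figure D4:**
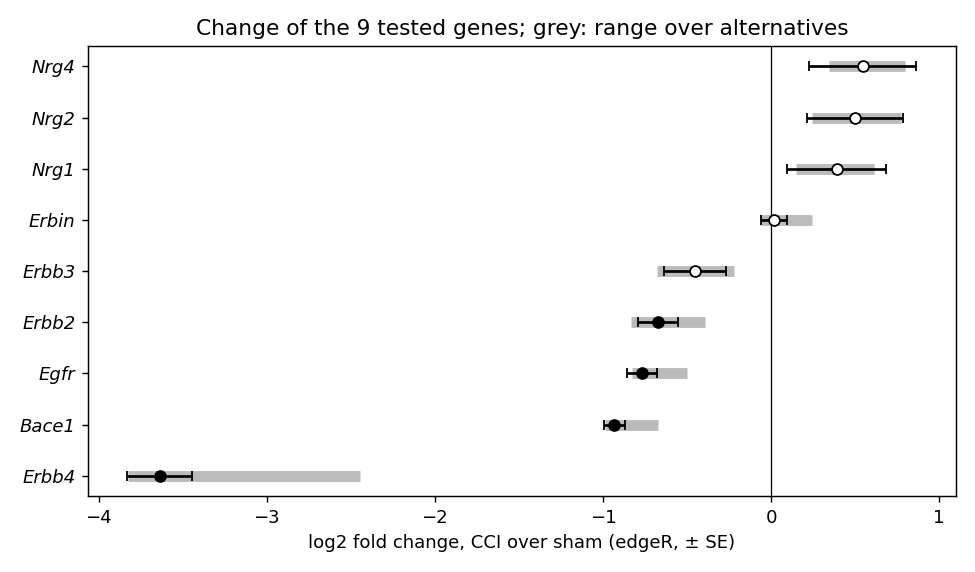
Log2 fold change of CCI over sham for the 9 tested genes, as points with SE (filled where called, open where not), over grey bars that span the values under the 20 or fewer alternative settings. The bars of Erbb4, Bace1, Egfr, Erbb2 and Erbb3 lie entirely below 0. Those of Nrg1, Nrg2 and Nrg4 lie entirely above 0, and that of Erbin crosses 0.

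Ordered by deposited FPKM, which corrects for gene length, the CCI nerve had Erbb3 (41.2 ± 12.6 FPKM) and Erbin (40.6 ± 4.01) first, with overlapping ranges, then Bace1 (17.7 ± 0.397), Egfr (10.4 ± 1.01) and Erbb2 (5.51 ± 1.05), each separate from the next (SD, n = 4). Nrg4 (1.39 ± 0.392 FPKM), Erbb4 (0.846 ± 0.248), Nrg2 (0.629 ± 0.0909) and Nrg1 (0.497 ± 0.0376) followed in CCI nerve with ranges that overlapped from 1 to the next. In sham nerve the order was Erbb3 (48.1 ± 3.38 FPKM), Erbin (34.3 ± 2.20), Bace1 (28.8 ± 1.82) and Egfr (15.1 ± 1.43), all separate, then Erbb4 (9.0 ± 0.767) and Erbb2 (7.49 ± 0.655), which overlapped. Nrg4 (0.817 ± 0.244 FPKM), Nrg2 (0.380 ± 0.137) and Nrg1 (0.324 ± 0.143) came last in sham nerve before Nrg3, again with overlapping neighbours. By mean CPM Nrg1 was instead the highest neuregulin, at 7.26 CPM in CCI nerve and 5.54 CPM in sham nerve. Nrg2 was at 1.78 and 1.26 CPM, and Nrg4 at 1.52 and 1.04 CPM, in the same order. The place of Nrg1 by FPKM rests on its gene length of 15818 bases, against 3065 for Nrg2 and 1179 for Nrg4. Erbb4 was the receptor whose place differed, below Erbb2 in every CCI library and above it in every sham library, although the ranges of the sham group touch. All receptors but Erbb4 in CCI nerve were above all neuregulins in mean FPKM in both groups.

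The tested genes of at least 5 CPM whose log2 CPM, centred on each gene's mean, ran closest to a receptor or ligand gene over the 8 libraries were found among 11655 candidates by the root mean square difference. Closest to Egfr were Cep83 (0.0554 log2 units), Prkab2 (0.0652) and Spryd7 (0.0691). Closest to Erbb2 were Lmln (0.0871), Stard13 (0.0890) and Fzd3 (0.0922), and closest to Erbb3 were LOC103691376 (0.0833), Stox2 (0.102) and Atp10b (0.106). Nrg1 had more distant neighbours, Tacr1 (0.164), Xdh (0.170) and Ccnt1 (0.211). The median distance of all candidates was between 0.469 and 0.600 log2 units.

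The other ligands of the EGF family act through EGFR or ErbB4. Of 7 genes, 4 were tested, of which 1 rose and 3 fell, with a median log2 fold change of -1.73. Here and in the next lists the counts stand against 36.2% of all tested genes higher and 32.2% lower, 68.4% in all, and a median of 0.05. Tgfa, the gene of TGF-α, was at 12.6, 13.3, 15.1 and 11.1 CPM in CCI 1 to 4, against 95.9, 87.1, 92.0 and 101.7 CPM in sham 1 to 4. It fell 7.23-fold (edgeR adjusted p = 6.04e-09). Hbegf, the heparin-binding ligand, fell 3.79-fold, to 27.4 ± 5.46 CPM in CCI nerve, against 104 ± 20 CPM in sham nerve (SD, n = 4 each; edgeR adjusted p = 8.48e-06), and Egf fell at low levels (0.497 ± 0.154 CPM in CCI nerve, 1.45 ± 0.598 CPM in sham nerve). Btc, which encodes betacellulin, rose to 2.62, 2.30, 3.2 and 4.13 CPM in CCI 1 to 4, against 0.617, 0.118, 0.186 and 0.441 CPM in sham 1 to 4 (log2 fold change 3.17, SE 0.47; edgeR adjusted p = 0.000127).

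Of 12 genes of proteases and cofactors that shed or process ErbB ligands, all tested, 6 rose and 3 fell, with a median log2 fold change of 0.09, and this share of calls was near the 68.4% of all tested genes. Rhbdl2, a rhomboid protease gene at 1.34 ± 0.429 CPM in CCI nerve and 0.223 ± 0.118 CPM in sham nerve, had the largest rise (5.96-fold, edgeR adjusted p = 0.000573). Adam17, the sheddase of TGF-α and of neuregulin-1, rose 2.04-fold, to 138 ± 12.5 CPM in CCI nerve, against 67.4 ± 5.22 CPM in sham nerve (SD, n = 4 each; edgeR adjusted p = 1.21e-06). Bace2, the paralog of Bace1, fell 1.78-fold, to 65.1 ± 6.19 CPM in CCI nerve, against 116 ± 8.15 CPM in sham nerve (edgeR adjusted p = 5.21e-06), and the sheddase gene Adam10 fell with a log2 fold change of -0.58 (edgeR adjusted p = 0.000128).

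Of 16 genes of feedback and turnover of ErbB receptors, 15 were tested, 2 rose and 6 fell (median log2 fold change -0.09), a lower share than the 68.4% called among all tested genes, and with library totals only 6 rose and 4 fell. Lrig1, a membrane protein that promotes loss of ErbB receptors, fell 1.79-fold, to 53.6 ± 3.52 CPM in CCI nerve, against 95.7 ± 11.9 CPM in sham nerve (SD, n = 4 each; edgeR adjusted p = 1.39e-05). Dusp6, a phosphatase that switches off ERK, rose 3.22-fold, to 111 ± 12.8 CPM in CCI nerve, against 34.6 ± 5.73 CPM in sham nerve (edgeR adjusted p = 7.47e-07).

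Of 23 genes that relay the signal inside the cell, all tested, 9 rose and 11 fell (median log2 fold change -0.13), against 36.2% higher and 32.2% lower among all tested genes, and with library totals only 11 rose and 4 fell. Pik3r1, the regulatory subunit of PI 3-kinase, fell 3.05-fold, to 219 ± 5.41 CPM in CCI nerve, against 668 ± 43.7 CPM in sham nerve (SD, n = 4 each; edgeR adjusted p = 1.62e-08). Of its catalytic subunit genes, Pik3cb rose 2.37-fold (edgeR adjusted p = 9.24e-07) and Pik3ca fell by 0.16 on the log2 scale (edgeR adjusted p = 0.0180; 0.06 and not called with library totals only, and adjusted p = 0.103 without CCI 2 and sham 2), and Akt1, the kinase downstream, rose 1.48-fold (edgeR adjusted p = 6.76e-06). The adaptor gene Shc1 rose 2.44-fold (edgeR adjusted p = 4.19e-07), while the docking protein gene Gab1 fell 2.31-fold (edgeR adjusted p = 2.62e-07) and Mapk3, which encodes ERK1, fell 2.58-fold (edgeR adjusted p = 1.96e-07). In the same libraries 10 of 11 macrophage markers and 8 of 8 cell cycle genes rose and 12 of 12 myelin markers fell, and the part of the cell mix in the pathway values was not tested.

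**Figure D5:**
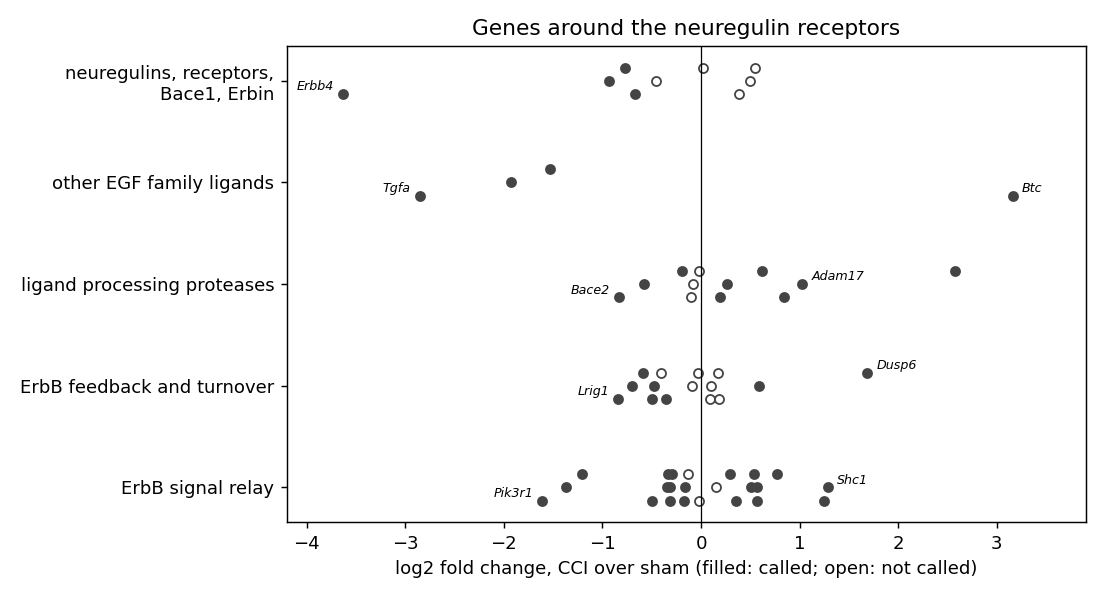
Log2 fold change of CCI over sham for each tested gene of 5 groups (rows), filled where called and open where not, with small vertical offsets only to separate points. Tgfa and Erbb4 lie farthest left, at -2.85 and -3.64, and Btc farthest right, at 3.17.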

How the data were processed

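Raw counts and FPKM of each gene in 8 libraries were deposited by the authors. Tools listed in the submitters' processing notes, with no roles, are fastp, HISAT2, HTSeq, DESeq2 and R 3.2.0, on build Rnor_6.0. Annotation and strand setting: not given in the sources used here, so overlapping and antisense genes are uncertain. Deposited FPKM equalled counts divided by gene length and library total, with no correction for library makeup.

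Counts were tested in edgeR 4.0.16 under R 4.3.3 by quasi-likelihood (filterByExpr, TMM, robust fit, no covariates) on 15763 of 22601 genes; the SE is the coefficient over the square root of F. The code was tested on simulated data with the same spread for every gene. It called 26.9% of 1.5-fold changes, 88.1% of 2-fold changes and 100% of 4-fold changes in the right direction. Small changes can thus go uncalled. The simulation changed far fewer genes than were called here, so these shares do not carry over directly. Ratios used deposited FPKM. Named pathway genes are the called genes of at least 1 CPM on average over the 8 libraries with the largest rise and fall in each list and the gene of smallest p; Hbegf, Egf, Adam10, Gab1, Mapk3, Pik3cb, Akt1, Errfi1, Ngfr, L1cam, Gfap, Ncam1, Rhbdl2 and Pik3ca were named after their values were seen. The genes and lists were chosen with earlier results of these data known. No library was left out. Alternatives were other scalings, DESeq2 1.42.0, limma 3.58.1 (voom, and log2 FPKM with 1 or 0.1 added), other filters, a replicate block, and libraries left out. Counting limits cover counting error only.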

Additional observations from a re-analysis of the deposited data

Results flagged for a closer look

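The FPKM ratio of Erbb3 to Sox10 in sham 2 was 0.427, apart from the ratios of 0.493 to 0.506 in the other sham libraries, with a gap of 0.838 of the group's range, past the critical value of Dixon's test for 4 samples. Of 28 groups of 4 libraries examined in this way, 1 stood out, and chance gives about 1 in 20. Sham 2 had the most skeletal muscle RNA of its group (992 CPM summed), and its part in this ratio was not tested. Without CCI 2 and sham 2 the log2 difference of the ratio was 1.39.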

How the results depend on the processing

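Erbb4, Bace1, Egfr and Erbb2 stayed lower and called under all 20 alternatives, Erbb4 between -3.82 and -2.44 on the log2 scale. Erbb3 was called under 6 of 20, among them DESeq2 (edgeR's 0.0504 became an adjusted p of 0.00643). Genes called higher among the 10 were 2 with library totals only, 3 with limma on log2(FPKM + 1) or log2(FPKM + 0.1), 2 with log2(FPKM + 1) and FPKM of at least 1 in 4 libraries, and 0 to 1 with a library left out, 1 without sham 2. In all, 7 were called with limma on log2(FPKM + 1) or log2(FPKM + 0.1). These scalings leave library makeup uncorrected and moved the median of all genes to 0.27 (library totals only); the share of calls that were higher was then 66.9%, against 52.9% with TMM, and genes called lower were 3143 with the FPKM minimum, against 5080. Feedback genes called higher were 6 and relay genes called lower 4 with library totals only and the 3 FPKM fits. EGF family ligands called higher were 3 with no filter, 0 with at least 5 CPM in 4 libraries and 3 with log2(FPKM + 0.1). The log2 fold change of Erbin turned to -0.0167 (DESeq2, and its size factors), -0.0065 (no filter) and -0.036 (at least 5 CPM), and was -0.0641 to 0.0534 with a library left out, negative without CCI 3, CCI 4 or sham 4; none of these was called. That of Pik3ca turned to 0.0625 (library totals only), 0.0575 (both log2(FPKM + 1) fits) and 0.0613 (log2(FPKM + 0.1)), not called. The direction of the 5 ratios held throughout, and none passed after adjustment under any alternative. The smallest exact p was 0.0286 with a library left out. The smallest p possible was 0.1 without CCI 2 and sham 2, and 0.125 for the sign-flip of same-numbered libraries. No ratio could pass in these settings. Replicate numbers did not pair the libraries (correlations of same-numbered deviations 0.121, 0.293, -0.024 and 0.027); with the replicate block 10505 genes and 5 of the 10 were called, Erbb3 added (edgeR adjusted p = 0.0208), and the sign-flip of same-numbered libraries gave exact p of at least 0.125 for the ratios. Nrg2, Nrg3 and Nrg4 rest on at most 98 counts per library, which limits their precision.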

Other observations

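Areg, Ereg and Epgn, genes of further EGF family ligands, were too low to be tested. Areg had 4, 19, 7 and 1 counts in CCI 1 to 4 and 0 in each sham library, and Ereg had 2, 2, 7 and 1 counts in CCI 1 to 4 and 0 in each sham library. Epgn had 0, 12, 3 and 17 counts in CCI 1 to 4, against 0, 0, 0 and 4 in sham 1 to 4.

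Errfi1, whose product inhibits EGFR and ErbB2, was at 206, 349, 210 and 207.5 CPM in CCI 1 to 4, against 226, 463, 386 and 214 CPM in sham 1 to 4. Sham 2 and sham 3 were the high libraries of the sham group for Errfi1, as they were for Nrg1. Errfi1 did not pass (log2 fold change -0.41, SE 0.30; edgeR adjusted p = 0.262).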
